A study of Mus musculus with 6 samples.

Results

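RNA-seq measured the transcripts of the Ifitm family in KVTR cells, mouse cells described by the labels as primary clear cell renal carcinoma cells, with dopamine and without it (blank). The family genes are the 5 rows of the deposited gene table whose symbol is Ifitm1, Ifitm2, Ifitm3, Ifitm5 or Ifitm10, of 56691 genes in all. Each group had 3 libraries, called blank 2, blank 3 and blank U (its count column carries no number) and dopamine 1, 2 and 3. No genotype, dose or duration is given in the sources used here, and nothing says that the libraries came from separate cultures, so any p-value measures a spread that may be technical. The study title joins the dopamine transporter Slc6a3 to splicing and to checkpoint inhibitor resistance. The members were chosen on their dopamine against blank CPM values, which were known when the family was picked. Differences between the groups in these 5 genes are therefore described here without a test.

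IFITM proteins are small membrane proteins with a CD225 domain that hinder the fusion of enveloped viruses with cell membranes. Ifitm1 protein sits mainly at the cell surface, whereas Ifitm2 and Ifitm3 proteins reside largely in endosomes and lysosomes, where they meet incoming virus. Interferons induce Ifitm1, Ifitm2 and Ifitm3 through JAK kinases, STAT proteins and interferon regulatory factors that bind response elements near the gene start. Ifitm5 is a bone gene of osteoblasts with a part in mineralization, and Ifitm10 is a family member of little known function.

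All 5 genes lie on chromosome 7 of the deposited table (GRCm39). Ifitm5 (ENSMUSG00000025489, 140528871 to 140530204, minus strand), Ifitm2 (ENSMUSG00000060591, 140534750 to 140535900, minus strand), Ifitm1 (ENSMUSG00000025491, 140547134 to 140549738, plus strand) and Ifitm3 (ENSMUSG00000025492, 140589499 to 140590683, minus strand) form a cluster. Ifitm10 (ENSMUSG00000045777, 141879574 to 141927490, minus strand) starts 1337 kb from the Ifitm3 start. These are whole gene spans.

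The sequences around the annotated starts differ between the members that carry the results, and are shown for that reason. They come from the RefSeq windows of 300 bases around each start (GRCm38.p6), printed to 30 bases past the start, 5′ to 3′ on the strand of the gene. Capitals mark the core of the interferon-stimulated response element, searched as GAAA, any 2 bases and GAAA. The printed stretch is chr7:141010715-141010994 (minus strand) for Ifitm3, chr7:140955932-140956211 (minus strand) for Ifitm2, chr7:140967826-140968105 (plus strand) for Ifitm1 and chr7:142372230-142372509 (minus strand) for one of the 3 Ifitm10 windows.
Ifitm3: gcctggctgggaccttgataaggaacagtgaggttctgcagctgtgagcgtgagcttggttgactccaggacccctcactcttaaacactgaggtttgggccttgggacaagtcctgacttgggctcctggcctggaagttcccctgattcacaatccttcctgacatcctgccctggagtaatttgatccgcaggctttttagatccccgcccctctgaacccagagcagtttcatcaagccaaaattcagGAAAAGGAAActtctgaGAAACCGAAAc
Ifitm2: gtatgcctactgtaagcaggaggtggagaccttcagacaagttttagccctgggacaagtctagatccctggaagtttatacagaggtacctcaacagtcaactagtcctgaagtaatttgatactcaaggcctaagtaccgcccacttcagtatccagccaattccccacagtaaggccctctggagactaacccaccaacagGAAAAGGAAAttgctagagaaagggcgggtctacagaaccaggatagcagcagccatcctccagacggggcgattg
Ifitm1: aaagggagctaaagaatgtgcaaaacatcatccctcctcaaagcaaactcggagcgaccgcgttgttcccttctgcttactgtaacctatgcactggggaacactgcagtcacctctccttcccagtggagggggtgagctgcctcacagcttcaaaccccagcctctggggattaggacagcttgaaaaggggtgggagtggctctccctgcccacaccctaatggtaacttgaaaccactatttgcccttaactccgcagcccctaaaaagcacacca
Ifitm10: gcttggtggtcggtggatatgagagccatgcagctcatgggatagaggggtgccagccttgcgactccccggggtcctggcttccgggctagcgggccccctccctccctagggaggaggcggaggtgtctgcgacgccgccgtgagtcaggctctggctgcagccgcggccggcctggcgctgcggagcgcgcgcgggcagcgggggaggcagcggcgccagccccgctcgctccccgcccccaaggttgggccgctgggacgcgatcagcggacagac

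The Ifitm3 window held this core at 2 places, beginning at bases 3 and 20 counted from the annotated start as base 1, and the Ifitm2 window held it once, beginning 46 bases before the start. Both strands were searched. The Ifitm1 window, the Ifitm5 window and the 3 Ifitm10 windows held none, and of 32851 windows of this length 3.44% held it at least once. The gamma-activated site core TTCNNNGAA was found in 1 of these 7 windows, that of Ifitm3, where it began at base 14 and overlapped the second of the printed matches, and in 8.3% of all windows. The printed Ifitm10 window was 73.7% G and C with 32 CpG dinucleotides, against 53% and 5 in the Ifitm3 window, 49.7% and 4 in Ifitm2, 51.3% and 5 in Ifitm1, and a median of 52.7% and 7 over all windows. Another Ifitm10 window, at chr7:142373697-142373996, was 51.3% G and C with 2 CpG. Such matches describe letters in these windows and say nothing of binding.

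Per length of transcript, Ifitm3 was the most abundant member and Ifitm5 the least. Levels are given as FPKM, which is CPM (the count scaled by the TMM-adjusted library size to a common total) per kilobase of exonic length, recomputed from the counts. Over the 6 libraries Ifitm3 averaged 816 ± 381 FPKM, Ifitm2 202 ± 71.2, Ifitm1 33.9 ± 30.1, Ifitm10 5.46 ± 2.32 and Ifitm5 0.0955 ± 0.0624 (SD, n = 6). The lowest Ifitm3 value (293) exceeded the highest Ifitm2 value (279), and the lowest Ifitm2 value (118) exceeded the highest Ifitm1 value (79.9), so these neighbours in the order did not overlap. The ranges of Ifitm1 (2.72 to 79.9) and Ifitm10 (3.39 to 8.99) overlapped, and in dopamine 1 Ifitm10 stood above Ifitm1. Ifitm3 made up 68.8% of the summed FPKM of the 5 genes in dopamine 1 and 83.0% in blank U, with the other 4 libraries between them.

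**Figure D1:**
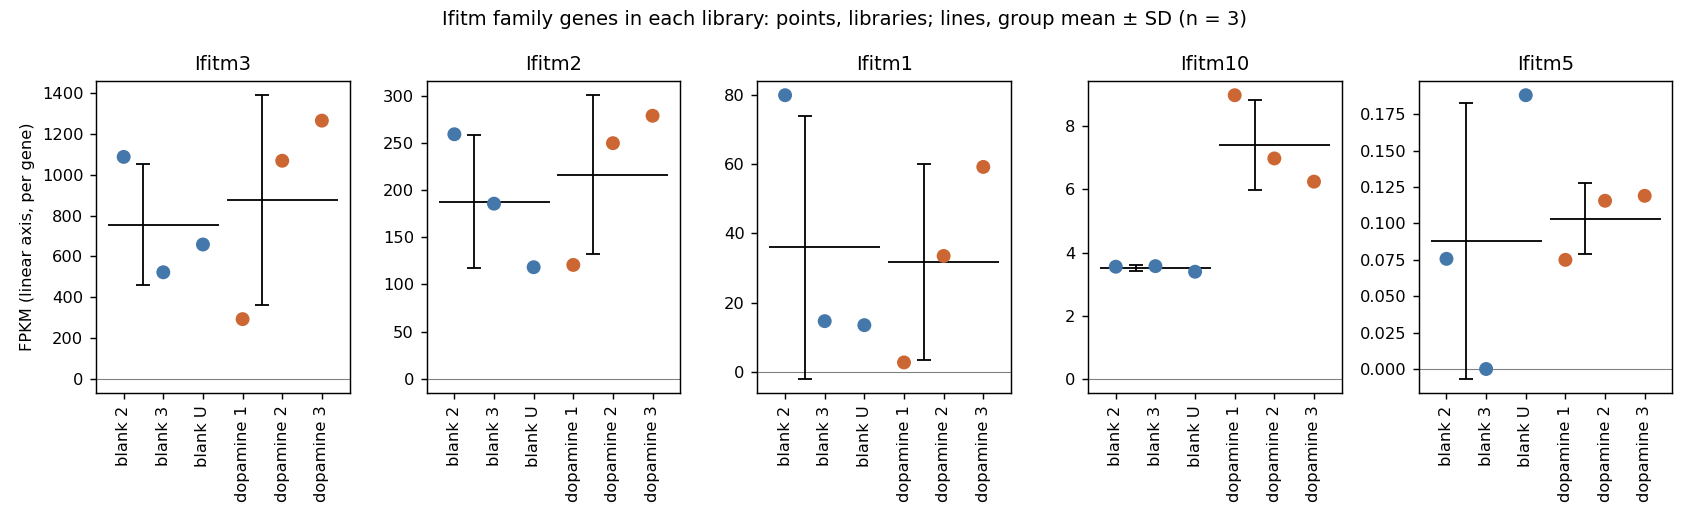
FPKM of each member (linear axis, a separate scale for each gene) in the 3 blank (blue) and 3 dopamine (orange) libraries, with lines at the group mean and bars of ± SD (n = 3). Ifitm3, Ifitm2 and Ifitm1 are high in blank 2, dopamine 2 and dopamine 3, whereas Ifitm10 is higher in all 3 dopamine libraries than in any blank library.

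Ifitm3, whose protein restricts entry of viruses such as influenza from endosomes, varied more within each group than between the group means. Its level was 738 CPM in blank 2, 354 in blank 3 and 447 in blank U, and 198, 725 and 859 CPM in dopamine 1, 2 and 3. The highest and the lowest values were both dopamine libraries, and the groups overlapped. The group means were 513 ± 200 CPM in blank and 594 ± 349 CPM in dopamine (SD, n = 3), a log2 fold change of 0.21 ± 0.56 (SE). Its direction rested on single libraries: the log2 fold change was -0.15 without dopamine 3, 0.0058 without blank 3 and 0.63 without dopamine 1, and -0.00019 in limma-voom with all 6.

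Ifitm2, the endosomal relative of Ifitm3, had 170 CPM in blank 2, 122 in blank 3 and 77.5 in blank U, and 79.0, 164 and 183 CPM in dopamine 1, 2 and 3. Blank 2, dopamine 2 and dopamine 3 were again the high libraries, and the groups overlapped. The means were 123 ± 46.2 and 142 ± 55.1 CPM (log2 fold change 0.21 ± 0.40), and the sign turned when blank U (-0.038) or dopamine 3 (-0.016) was left out. Ifitm2 moved less between libraries than Ifitm3, by a factor of 2.36 from lowest to highest against 4.33. The ratio of Ifitm3 to Ifitm2 FPKM was lowest in dopamine 1 (2.43) and blank 3 (2.82), 4.20 to 4.54 in blank 2, dopamine 2 and dopamine 3, and highest in blank U (5.57).

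Ifitm1, the member found mainly at the cell surface, had the widest range in fold of the 4 members above the detection limit. It was at 87.4 CPM in blank 2, 16.03 in blank 3 and 14.8 in blank U, and at 2.98, 36.6 and 64.8 CPM in dopamine 1, 2 and 3. The 52 counts of dopamine 1 and the 1511 of blank 2 were the extremes, 29.3-fold apart in CPM, and the groups overlapped. The means were 39.4 ± 41.6 CPM in blank and 34.8 ± 30.9 CPM in dopamine (log2 fold change -0.18 ± 1.07), and the log2 fold change ran from -0.99 without dopamine 3 to 1.16 without blank 2, and was 0.36 without dopamine 1. The SD of log2 CPM within groups was 1.94 for Ifitm1, larger than that of 98.4% of the 15420 genes tested, 0.90 for Ifitm3 and 0.61 for Ifitm2, with a median of 0.41 over all genes tested.

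Ifitm5, the osteoblast gene, was at or near the detection limit. It had 1, 0 and 3 counts in blank 2, blank 3 and blank U, and 1, 2 and 2 counts in dopamine 1, 2 and 3, so it did not pass the filter on low counts, and 4 of the 5 members were fitted. The count of 0 in blank 3 allows up to 0.160 CPM (3 counts), and all 6 counts lie at or under this floor, so no fold is given. Such floors cover counting error only. Of 8 osteoblast markers, 4 stayed below 1 CPM in all 6 libraries, and Runx2, a transcription factor of the osteoblast lineage that other cells also express, was at 15.6 to 29.2 CPM. Alpl reached 20.8 CPM in dopamine 1, and Phex 4.94 and Dmp1 1.34 CPM in blank U.

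Ifitm10 had the opposite arrangement, with little spread within blank and no overlap between the groups. It was at 17.0 CPM in blank 2, 17.1 in blank 3 and 16.2 in blank U, and at 43.0, 33.4 and 29.9 CPM in dopamine 1, 2 and 3. Every dopamine library lay above every blank library, and dopamine 1, the lowest library for Ifitm3 and Ifitm1, was the highest for Ifitm10. The means were 16.8 ± 0.468 and 35.5 ± 6.79 CPM, a log2 fold change of 1.08 ± 0.21 (2.11-fold). It ran from 0.92 without dopamine 1 to 1.19 without dopamine 3 when a library was left out, and was 0.89 with the replicate number as a block over the libraries numbered 2 and 3. This contrast chose the gene, so nothing is read from it. For scale, dopamine libraries lay above all blank libraries for 4% of the 15420 genes tested and below them for 4.47%, and 269 genes (1.74%) had a log2 fold change at least as high. Among the 4 fitted members it was the only one without overlap.

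The counts of Ifitm10 in blank were 294, 320 and 339. The SD of its blank CPM (0.468) was 0.496 times the SD that counting alone gives (0.942 CPM), whereas in dopamine the SD was 5.14 times it. For Ifitm3 these ratios were 38.2 in blank and 66.8 in dopamine, and for Ifitm1 28.0 and 24.6. For Ifitm2 they were 17.9 and 21.4. The spread of Ifitm1, Ifitm2 and Ifitm3 within a group was thus far above counting error, whereas that of Ifitm10 in blank was below it, as was that of Ifitm5 in dopamine (0.306), which stood at 1.24 in blank. Within groups the SD of log2 CPM of Ifitm10 was 0.19, larger than that of 13.7% of genes tested.

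**Figure D2:**
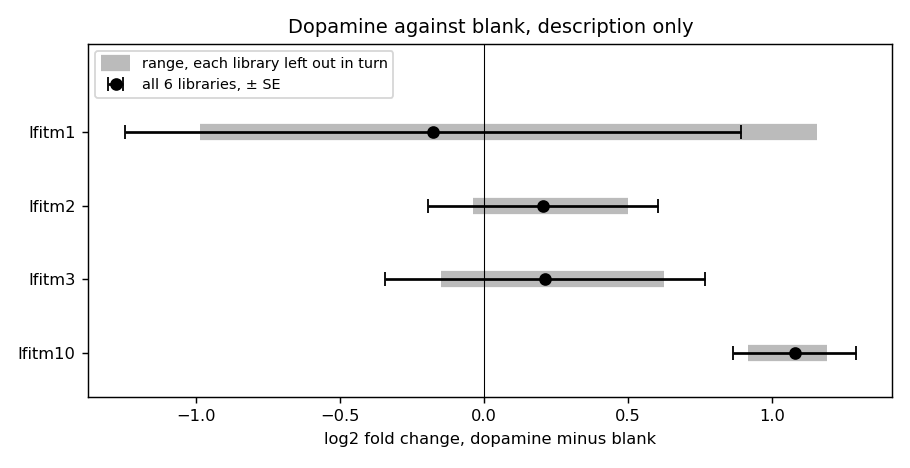
Log2 fold change of dopamine minus blank for the 4 fitted members (points, all 6 libraries; black bars, ± SE), with grey bands for the range when each library is left out in turn. The bands of Ifitm1, Ifitm2 and Ifitm3 cross 0, and that of Ifitm10 runs from 0.92 to 1.19.

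In edgeR's quasi-likelihood test over all genes, 0 of 15420 genes passed a Benjamini-Hochberg adjusted p of 0.05 (0%), with 454 at an unadjusted p under 0.05, and limma-voom called 0 and DESeq2 20 (6 higher, 14 lower). In simulated data with no gene changed, DESeq2 made 37 calls and edgeR and limma-voom 0. Of 50 genes simulated with a 2-fold change, edgeR and limma-voom called 0 and DESeq2 7. Of 50 at 4-fold, edgeR called 25, limma-voom 26 and DESeq2 46. The 0 calls in edgeR and limma-voom therefore do not show that changes near 2-fold are absent. Among the unchanged genes of the draw that held these changes, edgeR made 5 calls, limma-voom 4 and DESeq2 71. Each simulation was a single draw in which genes varied independently. The lists of interferon receptors, kinases and transcription factors, of effectors, of enzymes and partners, of other CD225 genes and of neighbours had no called member in any of the 3 tools. Total counts were 16771499 to 23375622 per library.

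The genes that carry interferon signals to their targets lay on both sides of 0. Of 19 receptors, kinases and transcription factors, all were tested, 11 lay on the higher and 8 on the lower side with dopamine, and 1 had an unadjusted p under 0.05. The median log2 fold change was 0.09, against 0.01 for all genes tested, and ran from -0.18 without dopamine 3 to 0.23 without blank 2 over the alternatives. The 4 most abundant per length were Jak1, a kinase of the interferon receptors, at 190 to 328 CPM, Il6st, the gp130 receptor chain, at 133 to 618 CPM, Stat3, its transcription factor, at 93.7 to 336 CPM, and Usp18, an interferon-induced brake on the receptor, at 13.5 to 132 CPM. The groups overlapped for each of these. Jak2, a kinase of the interferon gamma receptor named after its values were seen, was at 60.2 to 78.9 CPM without and 50.6 to 54.8 CPM with dopamine, the 1 member of 19 with no overlap (log2 fold change -0.44 ± 0.18, edgeR adjusted p = 0.9997), near the share of all genes below (4.47%).

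Interferon-induced effector genes were high in the same libraries as Ifitm3. Of 42 listed genes 41 were in the table and 39 were tested, with 26 on the higher and 13 on the lower side, 0 at an unadjusted p under 0.05 in edgeR, and a median log2 fold change of 0.27. The median rested on single libraries, being -0.06 without blank 3, -0.21 without dopamine 3, 0.63 without blank 2, 0.60 without dopamine 1, 0.39 without blank U and 0.13 without dopamine 2, and 1.08 with the replicate number as a block over the libraries numbered 2 and 3. As the mean of log2 CPM relative to the 6 libraries, the effectors lay at 0.74 in blank 2, -1.35 in blank 3, 0.31 in blank U, -1.36 in dopamine 1, 0.51 in dopamine 2 and 1.14 in dopamine 3. On that scale Ifitm3 lay at 0.58, -0.48, -0.14, -1.31, 0.56 and 0.80 in the same libraries. Both had dopamine 3, blank 2, dopamine 2, blank U, blank 3 and dopamine 1 in this order from high to low. Ifitm1 lay at 1.92, -0.52, -0.64, -2.91, 0.67 and 1.49 and Ifitm10 at -0.51, -0.50, -0.58, 0.82, 0.46 and 0.30. The libraries that were low for the effectors, blank 3 and dopamine 1, fell on opposite sides for Ifitm10.

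**Figure D3:**
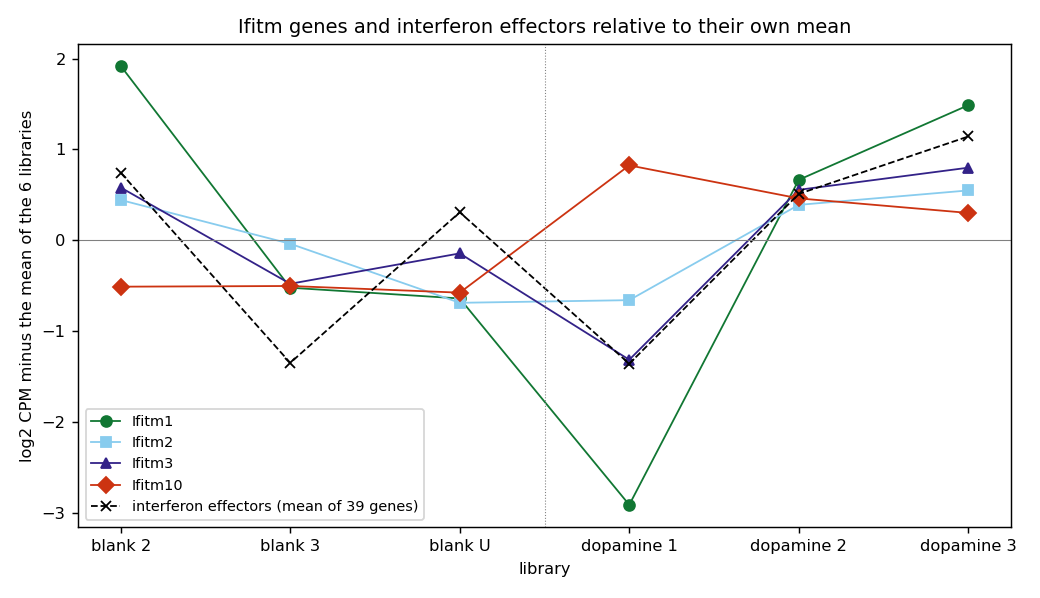
Log2 CPM relative to the mean of the 6 libraries for Ifitm1, Ifitm2, Ifitm3 and Ifitm10 (coloured) and for the mean of 39 interferon effectors (dashed black), with blank libraries left and dopamine libraries right of the dotted line. Lines only join the points of a gene, since libraries have no order. Ifitm3 and the effector mean both fall to their lowest value in dopamine 1 (-1.31 and -1.36), where Ifitm10 has its highest (0.82).

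The 4 effectors most abundant per length were Bst2, tetherin, which holds budding virus at the cell surface, Ifi27, a small interferon-induced membrane protein, Ly6e, a lipid-anchored surface protein that limits coronavirus entry, and Ifit3, a partner of RNA-binding IFIT proteins. Bst2 was at 82.0 to 141 CPM without and 81.7 to 263 CPM with dopamine (log2 fold change 0.77 ± 0.44), and Ifi27 at 74.4 to 202 and 136 to 231 CPM. Ifit3 had the widest range of the 4, from 7.16 CPM in blank 3 and 9.69 in dopamine 1 to 247 in blank 2 and 372 in dopamine 3. Ly6e was the 1 tested effector whose dopamine values, 338 to 467 CPM, all lay above its blank values, 288 to 335 CPM (log2 fold change 0.33 ± 0.22, edgeR adjusted p = 0.9997). A single gene of 39 is no more than the share of all genes above (4%). For Bst2, Ifi27 and Ifit3 the groups overlapped.

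Enzymes and partners of IFITM proteins all passed the filter on low counts. The list held palmitoyltransferases, the ubiquitin ligase Nedd4, the segregase Vcp, subunits of the AP-2 endocytic adaptor, tetraspanins and others, 20 genes, all tested, of which 11 lay on the higher and 9 on the lower side. In edgeR 0 had an unadjusted p under 0.05, and the median log2 fold change was 0.03, which turned to -0.022 without dopamine 2 and -0.018 without dopamine 3 and reached 0.11 under the block. Cd81, a tetraspanin that binds IFITM proteins at the surface, was at 535 to 1062 CPM without and 476 to 1167 CPM with dopamine, Vcp at 600 to 858 and 610 to 855 CPM, Nedd4, which marks Ifitm3 protein for turnover, at 1363 to 2451 and 1073 to 1498 CPM, and Cd9 at 144 to 281 and 209 to 269 CPM. The groups overlapped for all 4. Kdm1a, a lysine demethylase named after its values were seen, was the 1 member with all dopamine values (120 to 137 CPM) above all blank values (99.9 to 118 CPM; log2 fold change 0.21 ± 0.17, edgeR adjusted p = 0.9997), and 1 of 20 is near the share of all genes above (4%).

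Of 10 other genes of the CD225 family 9 were in the table, 4 were tested and 6 stayed below 1 CPM in all libraries. Ifitm6, which starts 7.15 kb from Ifitm3, was at 1.91, 0.588 and 0.240 CPM in blank 2, blank 3 and blank U and at 0.401, 4.82 and 4.18 CPM in dopamine 1, 2 and 3. Its groups overlapped, with dopamine 1 again among the low libraries. Syndig1, a synapse protein, ranged from 5.27 CPM in dopamine 1 to 34.8 in blank 2, and Prrt1, also of synapses, from 3.73 in dopamine 1 to 15.6 in dopamine 3. Prrt2 stayed at 0.984 CPM or less. In edgeR 0 of the 4 had an unadjusted p under 0.05, and their median log2 fold change of 0.07 ran from -0.32 without dopamine 3 to 0.49 without dopamine 1.

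The groups overlapped for all 10 tested neighbours of the members, which is near what the shares of all genes above (4%) and below (4.47%) give for so few genes. Within 100 kb of a member lay 22 genes with a name that is not a predicted gene name, Ifitm6 among them, of which 10 were tested. In edgeR 0 had an unadjusted p under 0.05, and the median log2 fold change was 0.08, which ran from -0.16 without dopamine 2 to 0.27 without dopamine 1 when a library was left out. Ctsd, the lysosomal protease cathepsin D, starts 14.3 kb from Ifitm10 and upstream of it on the same strand. It was at 2063, 1454 and 1061 CPM in blank 2, blank 3 and blank U and at 1201, 2683 and 2314 CPM in dopamine 1, 2 and 3 (log2 fold change 0.44 ± 0.42, 0.71 without dopamine 1 and 0.19 without dopamine 2), so its groups overlapped and dopamine 1 was low. The predicted gene Gm49369 overlaps both Ctsd and Ifitm10 and was at 2.78 to 3.36 CPM in blank and at 2.87, 8.40 and 7.14 CPM in dopamine 1, 2 and 3. Gm49369 is annotated on the same strand, so reads from stretches it shares with Ifitm10 cannot be told apart, and how they were counted is not given in the sources used here.

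Around the cluster, Psmd13, a proteasome subunit, was at 106 to 122 CPM without and 111 to 131 CPM with dopamine. Bet1l, a Golgi SNARE, was at 27.9 to 34.3 and 19.7 to 40.7 CPM, Ric8a, a chaperone of G protein alpha subunits, at 36.2 to 61.3 and 29.9 to 46.9 CPM, and Pgghg, a glucosidase that acts on collagen sugars, at 20.4 to 24.6 and 13.1 to 29.3 CPM. Groups overlapped for all of these, and also for B4galnt4 (12.5 to 15.2 and 15.1 to 19.4 CPM), a glycosyltransferase, Sirt3 (7.86 to 16.5 and 7.91 to 20.6 CPM), the mitochondrial deacetylase, Lsp1 (4.54 to 19.4 and 5.79 to 14.2 CPM), a leukocyte actin-binding protein, and Sigirr (0.908 to 1.27 and 0.682 to 1.38 CPM), an inhibitor of interleukin receptor signals.

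**Figure D4:**
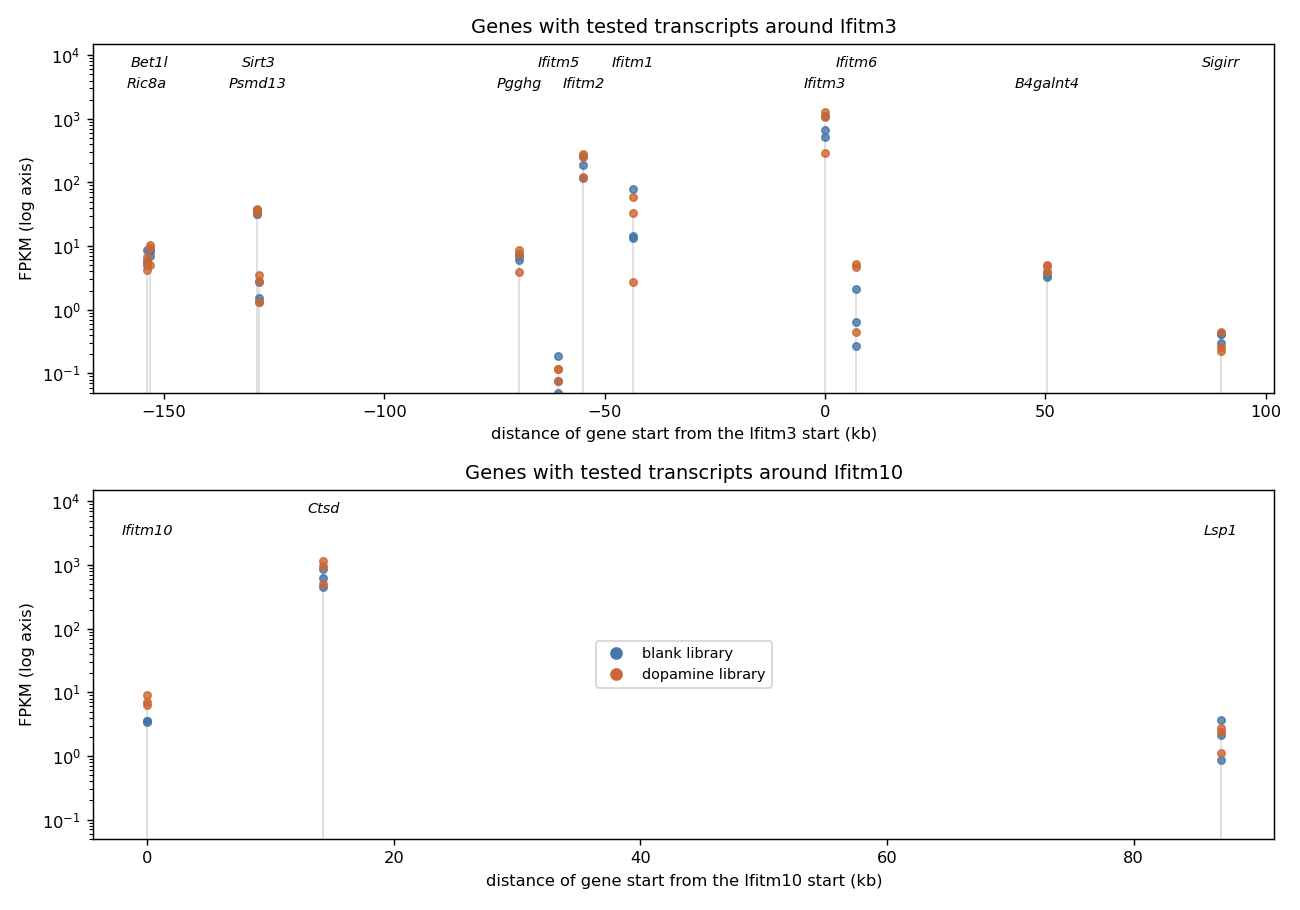
FPKM (log axis, 1 point per library; blank blue, dopamine orange) of the members and the tested genes around them, against the distance of each gene start from the Ifitm3 start (top) or the Ifitm10 start (bottom) in kb, with a value of 0 drawn at the lower edge. Orange and blue points mix for each gene around the cluster and for Ctsd and Lsp1, and separate for Ifitm10.

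The genes most like Ifitm10 over the 6 libraries were taken by the smallest root mean square difference of centred log2 CPM. Only tested genes without a predicted gene name were searched, and their median difference was 0.67. They were Por, the electron donor of microsomal cytochromes P450 (0.17), Itga7, a laminin-binding integrin chain (0.21), S100a16, a calcium-binding protein (0.21), Acss2, which makes acetyl-CoA from acetate (0.21), and Fzd9, a Wnt receptor (0.22). Por was at 160, 174 and 165 CPM in blank 2, blank 3 and blank U and at 586, 361 and 312 CPM in dopamine 1, 2 and 3, with dopamine 1 highest as for Ifitm10. Log2 fold changes of these 5 ran from 0.76 to 1.33, a range that their choice by likeness fixes. The genes most like Ifitm3 were Tmem220 (0.073), Tmem254 (0.11), Echs1 (0.11), Drp2 (0.12) and Yipf2 (0.14). The median over the tested genes without a predicted gene name was 0.82. Echs1, a mitochondrial enzyme of fatty acid oxidation, was at 96.7, 56.6 and 71.4 CPM in blank 2, blank 3 and blank U and at 32.2, 104 and 122 CPM in dopamine 1, 2 and 3. None of these 5 is on the list of interferon effectors. The measure also counts the size of the swings between libraries. Genes with a far wider range than Ifitm3 (4.33-fold), such as Ifit3 (51.9-fold), could therefore not rank, and nothing about interferon is read from this. Between members, the difference was 0.41 for Ifitm2 and Ifitm3, 0.92 for Ifitm1 and Ifitm3, and 1.02 for Ifitm3 and Ifitm10.

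Markers of some other cell types differed between libraries along with the clustered genes, while those of others did not. Most markers of the labelled renal identity were low. Of 13 kidney tubule and renal carcinoma markers, 4 stayed below 1 CPM in all libraries, and Pax8 reached at most 1.15 CPM. Their sum was 157, 249 and 97.4 CPM in blank 2, blank 3 and blank U. In dopamine 1, 2 and 3 it was 403, 101 and 109 CPM, highest in dopamine 1, where Ifitm3 was lowest. Lrp2, a tubule endocytic receptor, made up most of this sum in each library. The 10 astrocyte markers, all tested, summed to 6720, 2296 and 1134 CPM in blank 2, blank 3 and blank U and to 1138, 5533 and 4706 CPM in dopamine 1, 2 and 3. This sum was highest in the 3 libraries that were highest for Ifitm3, but not every marker was. Gja1 was higher in dopamine 1 (381 CPM) than in dopamine 2 (336) or dopamine 3 (222). Aldh1l1 was higher in blank U (201 CPM) than in blank 2 (193), and S100b in blank 3 (1.71 CPM) than in dopamine 2 (1.28). The other astrocyte markers, Gfap and Slc1a3 among them, had the same 3 libraries highest. The 7 fibroblast and pericyte markers summed to 1749 to 3212 CPM in blank and to 412, 1910 and 2995 CPM in dopamine 1, 2 and 3, lowest in dopamine 1 as Ifitm3 was. Pdgfra, a receptor of fibroblasts picked after its values were seen, was the 1 marker of these 7 without overlap. It was at 20.9 to 24.5 CPM without and 10.4 to 14.1 CPM with dopamine (log2 fold change -0.91 ± 0.23, edgeR adjusted p = 0.9997). Over all genes tested, 4.47% lay below in this way. In bulk RNA, fewer cells of a type and less RNA per cell cannot be told apart.

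The 10 leukocyte markers summed to 36.0 to 81.0 CPM without and 86.4 to 173 CPM with dopamine, a separation that rests on Cd68 alone. As the mean of centred log2 CPM over the tested markers, the list lay at 0.83, -1.66 and -0.16 in blank 2, blank 3 and blank U and at -1.30, 1.17 and 1.11 in dopamine 1, 2 and 3, low in dopamine 1, where Ifitm10 was highest. The highest of these markers in each library was Cd68, a lysosomal protein of macrophages, picked after its values were seen. It was at 19.7 to 55.0 CPM without and 62.9 to 128 CPM with dopamine (edgeR adjusted p = 0.9997), highest in dopamine 2. Cd68 was the 1 marker of 5 tested without overlap, where 4% of all genes tested lay above. Of the 10, 6 stayed below 1 CPM in all libraries, among them Ptprc at 0.636 CPM or less and Cd3e with no count. Lyz2 was at 34.0, 0.588 and 13.2 CPM in blank 2, blank 3 and blank U. In dopamine 1, 2 and 3 Lyz2 was at 0.917, 38.3 and 32.9 CPM. Adgre1 was at 4.92, 0.160 and 1.15 CPM and at 0.459, 3.53 and 4.73 CPM in the same order. Both were highest in the 3 libraries that were highest for Ifitm3. The 5 endothelial markers summed to 45.6 to 209 and 13.5 to 57.8 CPM, with 3 below 1 CPM in all libraries. Their sum was highest in blank U and lowest in dopamine 1, an order that rests on Cdh5 (206 and 5.45 CPM). Kdr, the other tested marker of this list, was instead lowest in blank U (2.11 CPM) and highest in dopamine 1 (7.62 CPM). The 8 osteoblast markers summed to 23.8 to 38.1 and 18.4 to 50.3 CPM. This sum was highest in dopamine 1, where Ifitm3 was lowest, a peak that rests on Alpl alone (20.8 CPM in that library). Runx2 (29.2 CPM) and Phex (4.94 CPM), the other tested markers of this list, were instead highest in blank U. The part of these cell types in the levels of the Ifitm genes was not tested.

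Near-identical paralogs could exchange reads, so the transcripts of the family were compared (GENCODE M21). The longest identical run was 69 bases between Ifitm2 and Ifitm3, 64 between Ifitm1 and Ifitm3 and 40 between Ifitm1 and Ifitm2, each shorter than a 150-base read. Between Ifitm10 and any other family gene it was at most 15 bases. The authors' counting could still split reads between Ifitm1, Ifitm2 and Ifitm3, whose levels carry that uncertainty.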

How the data were processed

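Counts of reads per gene for 3 blank and 3 dopamine libraries come from the table deposited by the authors, whose build is GRCm39 per the submitters' processing notes. RNA went through the SMART-Seq HT kit and was read as 150-base pairs, per the labels' protocols. By general knowledge of that kit its cDNA does not mark strand. The sources used here name no aligner, counting program or annotation release. Exonic lengths in bases are another column deposited by the authors, and 6 columns of FPKM per library were not used. Total counts were 16771499 to 23375622. One blank count column has no number and was taken as a library of its group.

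All genes that passed filterByExpr (15420) were fitted with edgeR 4.0.16 (R 4.3.3) with TMM scaling and no covariate, by the 2-sided quasi-likelihood test with Benjamini-Hochberg adjustment at 0.05. The SE of an edgeR log2 fold change is its size over the root of F. Centred log2 CPM has a prior count of 2. Alternatives were relative log expression scaling, no filter on low counts, DESeq2 1.42.0, limma-voom (limma 3.58.1), leaving out each library, and the replicate number as a block. The fits were tested on simulated data, in which DESeq2, but not edgeR or limma-voom, made calls when no gene was changed. All of these tools called some unchanged genes in the draw that also held changed genes. Members, lists and tests were chosen with earlier results of these data known. The text names all members, the 4 tested genes of highest mean FPKM in each list, all tested neighbours within 100 kb, and the 5 genes most like Ifitm10 and most like Ifitm3. Jak2, Ly6e, Kdm1a, Pdgfra and the cell type markers named were picked after their values were seen, except that Ly6e also met the rule. Rigi and Prrt1b, 2 listed symbols, had no match in the table.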

Additional observations from a re-analysis of the deposited data

How the results depend on the processing

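Over 12 alternatives the log2 fold change of Ifitm10 stayed between 0.89 and 1.19 with no change of sign, while the sign turned in 3 of 12 for Ifitm1, 2 of 12 for Ifitm2 and 2 of 12 for Ifitm3. The contrast that chose Ifitm10 holds no overlap between its groups. Its sign could therefore hardly turn, and nothing is read from that. Under each alternative, the value of each of these 4 members lay within its SD of log2 CPM within groups of the value from all 6 libraries. Over all genes, edgeR called 0 with each library left out, with another scaling, without the filter and under the block. The count was 0 in limma-voom and 20 in DESeq2, which made 37 calls in simulated data with no gene changed. The cause of the difference between the tools was not tested. Without the filter 29442 genes were tested, of which 887 had an unadjusted p under 0.05. Por, named for its likeness to Ifitm10, was among the 20 genes that DESeq2 called, and edgeR did not call it. The 5 lists had 0 called members under all alternatives. Ifitm5 was too low for any fit other than that without a filter, and no value is given.

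Same-numbered libraries share only a number. With the replicate number as a block over the 4 libraries numbered 2 and 3, the log2 fold change was 0.89 for Ifitm10, 0.62 for Ifitm3, 0.26 for Ifitm2 and 0.36 for Ifitm1, and 0 genes were called, with 1122 at an unadjusted p under 0.05. The same 4 libraries without the block, an alternative chosen after seeing the data, gave 0.89, 0.53, 0.25 and -0.029, with 0 called and 1403 at an unadjusted p under 0.05. Across genes, the difference of blank 2 and blank 3 correlated at -0.089 with that of dopamine 2 and dopamine 3. The counts of 0 to 3 limit what can be said of Ifitm5.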
